A study of Mus musculus with 6 samples.

Results

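Chromatin accessibility at 39 splicing factor genes was examined in mouse hematopoietic stem cells by ATAC-seq, a method in which Tn5 transposase inserts sequencing adapters where DNA is open. The genes were listed by symbol, and all 39 were found among the 21627 protein-coding genes of the mm10 RefSeq annotation used here. Dek encodes a chromatin-bound nuclear protein with a reported part in splice site choice, which is the reason these genes were set apart. The libraries labelled Dek_cKO came from Dekfl/fl mice with Tie2-Cre, whose promoter is active in endothelial and blood cells, so that the deletion is not limited to stem cells. Those labelled Dek_fl came from Dekfl/fl mice for which no Cre is named. Both groups were C57BL/6 animals of 12 weeks, labelled 3 months, with floxed alleles in both, in steady state, and about 20000 marrow cells gated as lineage-negative, Sca-1+, c-Kit+, CD48- and CD150+ were sorted for a library. There were 3 libraries per group, although the design text speaks of duplicates. Nothing in the labels says whether these came from separate animals, so the spread between them may be technical.

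Introns are removed by the spliceosome, which is built from small nuclear ribonucleoproteins and many further proteins. The U1 particle marks the start of an intron, SF1 and the U2AF pair mark the branch point and the intron's end, and the U2 particle with SF3A and SF3B then takes the branch point. The tri-snRNP then joins, before the spliceosome is activated. SR proteins and hnRNPs bind the transcript and steer which sites are used. Mutations of SRSF2, U2AF1, SF3B1 and ZRSR2 recur in human myeloid neoplasms that arise from blood stem cells.

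The measured values were peaks, called by the authors in each library on its own. A peak was placed at a gene end when any base of it lay within 1 kb of either annotated end, and in the gene body when it lay inside the gene but farther from both ends. For 35 of the 39 genes a RefSeq promoter table gave the strand and the start of transcription. U2af2, Sf3b4, Snrpb and Snrpd1 were not in that table, so only "gene end" can be said of their peaks. Promoters of 6 members are shown because the peaks described next lie on them: the 4 genes mutated in myeloid neoplasms, and the members with the highest and the lowest mean percentile of fold, Snrnp70 and Hnrnpu. Each runs 5′ to 3′, with 250 bases before the start and 50 from it on, from RefSeq GRCm38.p6. The annotated genes Srsf2, U2af1 and Hnrnpu reach upstream of the sequence shown. Summits of U2af1 were not placed on its sequence. Capitals mark every match, on either strand, to the letters known for 8 kinds of factor or element. ETS factors were searched as CCGGAAG and NRF1 as GCATGCGC. The NFY letters were CCAAT, and those of SP1 and KLF factors were GGGCGG. The promoter element named the TATA box was searched as TATAAA, and the YY1 letters were AAGATGG. The E-box was searched as CACGTG, and the cyclic AMP response element as TGACGTCA.

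Srsf2 promoter, chr11:116853045-116853344, minus strand: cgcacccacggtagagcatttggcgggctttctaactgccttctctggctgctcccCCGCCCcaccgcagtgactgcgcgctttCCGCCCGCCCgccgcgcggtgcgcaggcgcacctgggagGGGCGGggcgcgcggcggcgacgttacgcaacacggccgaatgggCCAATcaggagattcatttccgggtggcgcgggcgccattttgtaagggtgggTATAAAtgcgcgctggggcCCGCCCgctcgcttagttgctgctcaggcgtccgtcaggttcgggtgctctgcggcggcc
U2af1 promoter, chr17:31658715-31659014, minus strand: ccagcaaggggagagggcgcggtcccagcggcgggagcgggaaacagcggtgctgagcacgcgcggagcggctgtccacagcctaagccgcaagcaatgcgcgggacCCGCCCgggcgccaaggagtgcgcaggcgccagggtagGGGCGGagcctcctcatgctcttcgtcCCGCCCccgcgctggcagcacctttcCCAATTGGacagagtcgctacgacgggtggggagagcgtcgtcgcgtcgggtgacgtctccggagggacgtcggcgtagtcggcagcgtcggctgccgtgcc
Sf3b1 promoter, chr1:55027429-55027728, minus strand: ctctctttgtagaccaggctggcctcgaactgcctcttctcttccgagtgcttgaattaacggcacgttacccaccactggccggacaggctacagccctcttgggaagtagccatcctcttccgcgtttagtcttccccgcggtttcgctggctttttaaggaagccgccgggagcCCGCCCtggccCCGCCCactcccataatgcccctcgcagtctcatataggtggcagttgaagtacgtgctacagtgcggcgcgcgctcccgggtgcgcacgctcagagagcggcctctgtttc
Zrsr2 promoter, chrX:163958617-163958916, minus strand: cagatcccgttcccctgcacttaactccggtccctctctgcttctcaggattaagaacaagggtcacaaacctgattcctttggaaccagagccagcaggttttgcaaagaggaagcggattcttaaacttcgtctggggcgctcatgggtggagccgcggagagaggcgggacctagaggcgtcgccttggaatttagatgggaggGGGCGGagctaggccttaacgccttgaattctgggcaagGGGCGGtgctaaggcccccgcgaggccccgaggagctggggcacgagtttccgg
Snrnp70 promoter, chr7:45395693-45395992, minus strand: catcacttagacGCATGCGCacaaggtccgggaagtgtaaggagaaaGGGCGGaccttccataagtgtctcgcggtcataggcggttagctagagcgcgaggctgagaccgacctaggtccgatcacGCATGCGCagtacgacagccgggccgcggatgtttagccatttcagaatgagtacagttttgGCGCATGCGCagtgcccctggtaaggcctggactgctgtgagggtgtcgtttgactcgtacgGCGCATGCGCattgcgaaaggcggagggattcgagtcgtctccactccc
Hnrnpu promoter, chr1:178337766-178338065, minus strand: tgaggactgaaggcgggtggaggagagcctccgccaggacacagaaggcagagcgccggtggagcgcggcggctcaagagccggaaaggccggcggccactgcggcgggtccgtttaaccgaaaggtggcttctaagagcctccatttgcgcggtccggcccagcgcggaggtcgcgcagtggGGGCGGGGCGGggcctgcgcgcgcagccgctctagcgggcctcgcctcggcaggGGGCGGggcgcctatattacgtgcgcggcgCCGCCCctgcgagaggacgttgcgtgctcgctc

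The lists were of unequal kind. There were 70756, 73173 and 27170 peaks in Dek_cKO replicates 1, 2 and 3, and 52451, 71555 and 23813 in Dek_fl replicates 1, 2 and 3. Replicates 1 and 2 of both groups carry a score taken from the q-value and replicate 3 of both a score taken from the p-value, so the replicate number also marks a way of making the list, which is balanced between the groups. Read depth is unknown, and a gene without a peak is not shown to be closed. Of 8 stem cell markers, Kit and Meis1 were called at a gene end throughout and the others in 1 to 5, Ly6a in 0 Dek_cKO libraries and 1 Dek_fl library. Of 3 neutrophil markers, gene-end peaks covered 66.7%, 33.3% and 66.7% in Dek_cKO replicates 1, 2 and 3 and 0%, 33.3% and 0% in Dek_fl replicates 1, 2 and 3, with Elane at 0 libraries. Of 3 B cell markers they covered 100%, 100% and 33.3% in the Dek_cKO libraries and 33.3%, 100% and 0% in the Dek_fl libraries. Of 3 T cell markers they covered 33.3%, 66.7% and 0% in the Dek_cKO libraries and 0%, 33.3% and 0% in the Dek_fl libraries. Of 3 erythroid markers they covered 100% in every library except Dek_fl replicate 3, at 66.7%. Of 4 endothelial markers the share was the same in both groups in replicates 1 and 2 and lower in Dek_cKO in replicate 3. Over all protein-coding genes they covered 67.4%, 67.6% and 51.98% in the Dek_cKO libraries and 63.6%, 67.7% and 51.4% in the Dek_fl libraries. The part of cells other than stem cells in the differences between groups given here was not tested. At Dek itself, the targeted gene, 1 gene-end region (chromosome 13, 47104846 to 47107066) was called in every library, with fold over background of 5.13, 4.26 and 10.1 in Dek_cKO replicates 1, 2 and 3 and 4.13, 4.39 and 10.8 in Dek_fl replicates 1, 2 and 3; the labels do not say which part of the gene was floxed, so this does not check the genotype.

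Each of the 39 splicing factor genes was called at a gene end in the 3 Dek_cKO libraries and in the 3 Dek_fl libraries. Over all protein-coding genes 48.8% were so called in every library, 10548 of 21627. Regions are named start here when they lay within 1 kb of the outer annotated gene end on the side where transcription begins. This end was called in all 6 libraries in 35 of the 35 members of known strand, against 47.9% of 17273 protein-coding genes. It can differ from the start in the promoter table, as in Srsf2 and Hnrnpu. In each library a start from the promoter table lay under a peak in all 35. Over protein-coding genes with a peak within 1 kb of such a start, this held for 92.4%, 90.8% and 88.1% in Dek_cKO replicates 1, 2 and 3. In Dek_fl replicates 1, 2 and 3 it held for 90.1%, 91.7% and 89.3%. At the other end of the gene, only Prpf8, the scaffold of the catalytic core, and Sf3b2, an SF3B subunit, had a peak in all 6 libraries, 2 of 35 (5.71%) against 4.67% of protein-coding genes. Those regions also lay at an end of a neighbouring gene, Rilp for Prpf8 and Pacs1 for Sf3b2. Another 8 of the 35 members had a peak at the other end in 1 to 5 libraries and 25 in none. Of the 17273 protein-coding genes, 2437 had one in 1 to 5 libraries and 14029 in none.

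Members ranked high in each list. By percentile of fold within a library's list, where 100% is the strongest peak, the median member stood at 85.6%, 86.6% and 73.4% in Dek_cKO replicates 1, 2 and 3 and at 89.5%, 85.8% and 76.5% in Dek_fl replicates 1, 2 and 3. The same median over all protein-coding genes with a gene-end peak was 77.0%, 78.5% and 70.4% in the Dek_cKO libraries and 79.8%, 76.2% and 69.7% in the Dek_fl libraries. The members' median thus lay above that of all genes in every library. So did the median of a second list of other splicing genes, given below, so the high rank was not particular to the members. By percentile of −log10 p the members' medians were 95.4%, 95.7% and 82.4% in the Dek_cKO libraries and 93.3%, 95.5% and 83.7% in the Dek_fl libraries, against 88.4%, 88.3% and 74.1% and against 85.3%, 88.3% and 73.0% over all protein-coding genes called. Averaged over libraries, the members' median percentile of fold was 81.8% ± 7.34 in Dek_cKO and 83.9% ± 6.74 in Dek_fl (SD, n = 3 each), a difference of -2.08 percentage points. In lists of equal length it was -8.61 points (62.0% in Dek_cKO and 70.6% in Dek_fl), and leaving out 1 library gave -5.82 (without Dek_fl replicate 3) to 2.14 points (without Dek_cKO replicate 3), with 0.720 without Dek_fl replicate 1. For −log10 p it was 91.2% ± 7.63 in Dek_cKO and 90.8% ± 6.30 in Dek_fl, a difference of 0.354 points. In equal-length lists it was -0.743 points, and leaving out 1 library gave -3.22 (without Dek_fl replicate 3) to 4.76 points (without Dek_cKO replicate 3), with negative values also without Dek_cKO replicate 1 or 2. In the deposited lists both differences were smaller than the spread between all libraries, which includes the lower values of replicate 3. Neither kept its direction when 1 library was left out, which also unbalances that split. By fold the difference was -1.59 points (SD 1.94) within replicates 1 and 2 and -3.06 points within replicate 3. By −log10 p it was 1.18 points (SD 1.15) within replicates 1 and 2 and -1.30 points within replicate 3.

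**Figure D1:**
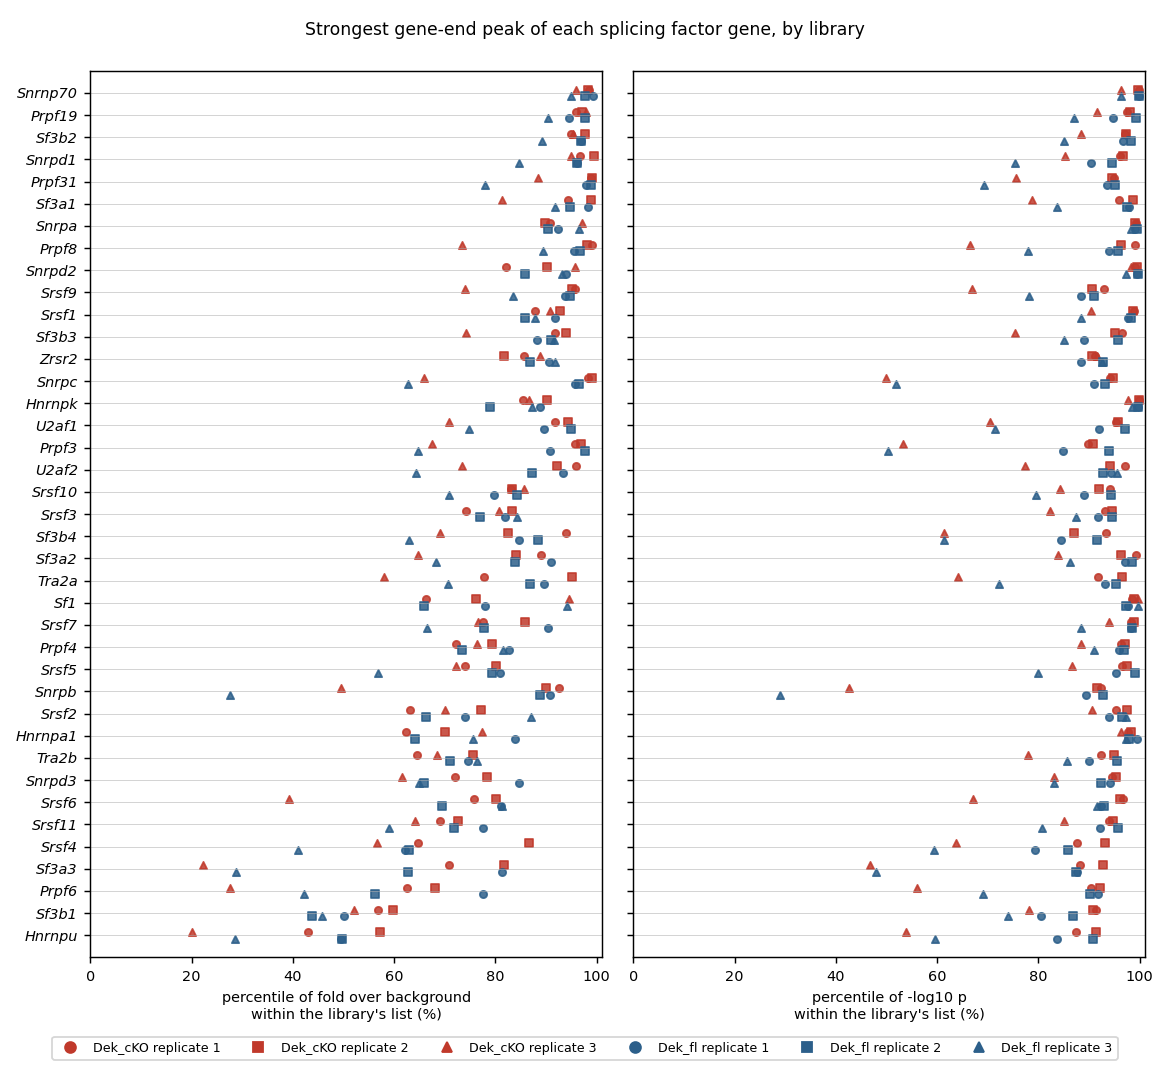
Percentile of the strongest gene-end peak of each of the 39 genes within its library's list, by fold over background (left) and by −log10 p (right), 1 point per library, Dek_cKO in red and Dek_fl in blue, with a marker for each replicate number. Genes are ordered by mean percentile of fold, from Snrnp70 at 97.4% to Hnrnpu at 41.3%; replicate 3 of either group is often the lowest point of a gene.

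The 3 highest members by mean percentile of fold were Snrnp70, Prpf19 and Sf3b2. Snrnp70 encodes the U1-70K protein that binds U1 RNA, and its start region (chromosome 7, 45395075 to 45396460) had folds of 10.8, 11.7 and 15.4 in Dek_cKO replicates 1, 2 and 3 and 9.79, 9.20 and 14.1 in Dek_fl replicates 1, 2 and 3. Prpf19 encodes the ubiquitin ligase of the PRP19 complex, which helps activate the spliceosome. Its start region (chromosome 19, 10894670 to 10896155) had folds of 9.82, 11.2 and 16.4 in the Dek_cKO libraries and 8.14, 9.17 and 12.9 in the Dek_fl libraries. Sf3b2 had folds at its start (chromosome 19, 5294813 to 5296113) of 9.52, 11.4 and 15.1 in the Dek_cKO libraries and 8.69, 8.94 and 12.6 in the Dek_fl libraries. In all 3 genes the Dek_cKO fold was higher than the Dek_fl fold of the same replicate number, yet the fold is set within each library and differs in scale between them, so only ranks were compared. By the rank score explained below, Dek_cKO minus Dek_fl was -0.10 (SE 0.30) at Snrnp70 and 0.04 (SE 0.30) at the Sf3b2 start. Prpf19 is given below.

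The 3 lowest were Hnrnpu, Sf3b1 and Prpf6. Hnrnpu encodes a nuclear matrix and RNA-binding protein, and its strongest gene-end peak stood at 43.1%, 57.3% and 20.04% of the list by fold in Dek_cKO replicates 1, 2 and 3 and at 49.6%, 49.6% and 28.5% in Dek_fl replicates 1, 2 and 3. By −log10 p the same peak stood at 87.4%, 91.5% and 53.8% in the Dek_cKO libraries and 83.8%, 90.8% and 59.5% in the Dek_fl libraries. A low fold therefore went with a high rank by p in replicates 1 and 2. The peak was also wide, 2528, 2395 and 652 bp in the Dek_cKO libraries and 1572, 2560 and 686 bp in the Dek_fl libraries. Prpf6, a protein of the U5 particle in the tri-snRNP, had folds at its start (chromosome 2, 181600727 to 181601647) of 5.91, 6.75 and 6.56 in the Dek_cKO libraries and 6.07, 4.92 and 7.29 in the Dek_fl libraries. Its region was the narrowest of the 42 tested gene-end regions, at 921 bp.

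Of the 4 genes mutated in myeloid neoplasms, Sf3b1 encodes the SF3B subunit that contacts the branch point. Its start region (chromosome 1, 55025856 to 55029657) was the widest of the 42, at 3802 bp. Its folds were 5.50, 6.05 and 8.49 in Dek_cKO replicates 1, 2 and 3 and 4.41, 4.24 and 7.54 in Dek_fl replicates 1, 2 and 3. The peak itself was 3761, 2097 and 603 bp wide in the Dek_cKO libraries and 2687, 3587 and 654 bp wide in the Dek_fl libraries. It was narrowest in replicate 3 of both groups.

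Srsf2 encodes an SR protein that binds exonic enhancers, and U2af1 the U2AF subunit that reads the last bases of an intron. The Srsf2 start region (chromosome 11, 116852403 to 116854226, shared with Mfsd11) had folds of 5.96, 7.65 and 10.3 in the Dek_cKO libraries and 5.79, 5.55 and 12.2 in the Dek_fl libraries. The U2af1 start region (chromosome 17, 31657951 to 31659414) had folds of 8.89, 10.3 and 10.4 in the Dek_cKO libraries and 7.34, 8.45 and 10.3 in the Dek_fl libraries. Zrsr2 acts at the intron's end in the minor class of introns and lies on the X chromosome. Its start region (163957462 to 163959158, shared with Gm38561) had folds of 8.04, 8.17 and 13.3 in the Dek_cKO libraries and 7.47, 7.25 and 13.2 in the Dek_fl libraries. By percentile of fold Zrsr2 and U2af1 lay high, at means of 87.6% and 86.1% over the 6 libraries, Srsf2 at 72.9% and Sf3b1 at 51.4%. By percentile of −log10 p Srsf2 was the highest of the 4, at 95.2%.

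The other members are given by family, with the mean percentile of fold over the 6 libraries. Among the other 9 SR protein genes the values ran from 62.3% (Srsf4) to 89.5% (Srsf9 and Srsf1). The related Tra2a and Tra2b, which bind purine-rich enhancers, stood at 79.7% and 71.8%. Sf1, the branch point binding protein, stood at 79.2% and U2af2, its partner at the polypyrimidine tract, at 84.4%. Among SF3A and SF3B genes Sf3a3 was low at 57.9%, and Sf3a1, Sf3a2, Sf3b3 and Sf3b4 lay between 80.2% and 93.2%. The tri-snRNP genes Prpf3, Prpf4, Prpf8 and Prpf31 lay between 77.6% and 93.5%. The U1 genes Snrpa and Snrpc stood at 92.8% and 86.4%. The genes of the Sm ring, which encircles most of the spliceosomal RNAs, ran from 71.2% (Snrpd3) and 73.2% (Snrpb) to 90.2% (Snrpd2) and 94.7% (Snrpd1). Hnrnpa1, a splicing repressor, stood at 72.2% by fold and 97.8% by −log10 p, and Hnrnpk, a poly(C)-binding protein gene, at 86.3% and 99.2%.

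The summit of the strongest peak within 1 kb of an annotated start had a median position of -66, -38 and -26 bp in Dek_cKO replicates 1, 2 and 3 and -40, -56 and -1 bp in Dek_fl replicates 1, 2 and 3, where negative is upstream. Within 250 bp of the start lay 32, 29 and 27 of the 35 summits in the Dek_cKO libraries and 29, 27 and 29 in the Dek_fl libraries. These were 91.4%, 82.9% and 77.1% in the Dek_cKO libraries and 82.9%, 77.1% and 82.9% in the Dek_fl libraries, against 74.96%, 74.3% and 79.8% and against 75.5%, 73.3% and 80.1% over all protein-coding genes with a start peak. The members' share was thus below that of all genes in Dek_cKO replicate 3 and above it in the other libraries. In 25 of the 35 genes all 6 summits lay that close. The summit was upstream in all 6 libraries in 12 genes, downstream in all 6 in 4 (Srsf1, Srsf5, Zrsr2 and Hnrnpu) and on both sides in 19. Snrpd3 had the farthest upstream summits, at -703, -699 and -668 bp in the Dek_cKO libraries and -695, -746 and -695 bp in the Dek_fl libraries, in a region shared with Gucd1. The median range of a gene's summit over the 6 libraries was 141 bp, and that of 10 genes was under 100 bp. The strongest peak was not always the same peak. In replicate 3 of both groups the Srsf11 summit (118 bp in Dek_cKO and 161 bp in Dek_fl) belonged to a peak at a second start. That peak is counted below as gene-body. At the outer start the summits were at -17 and -22 bp.

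**Figure D2:**
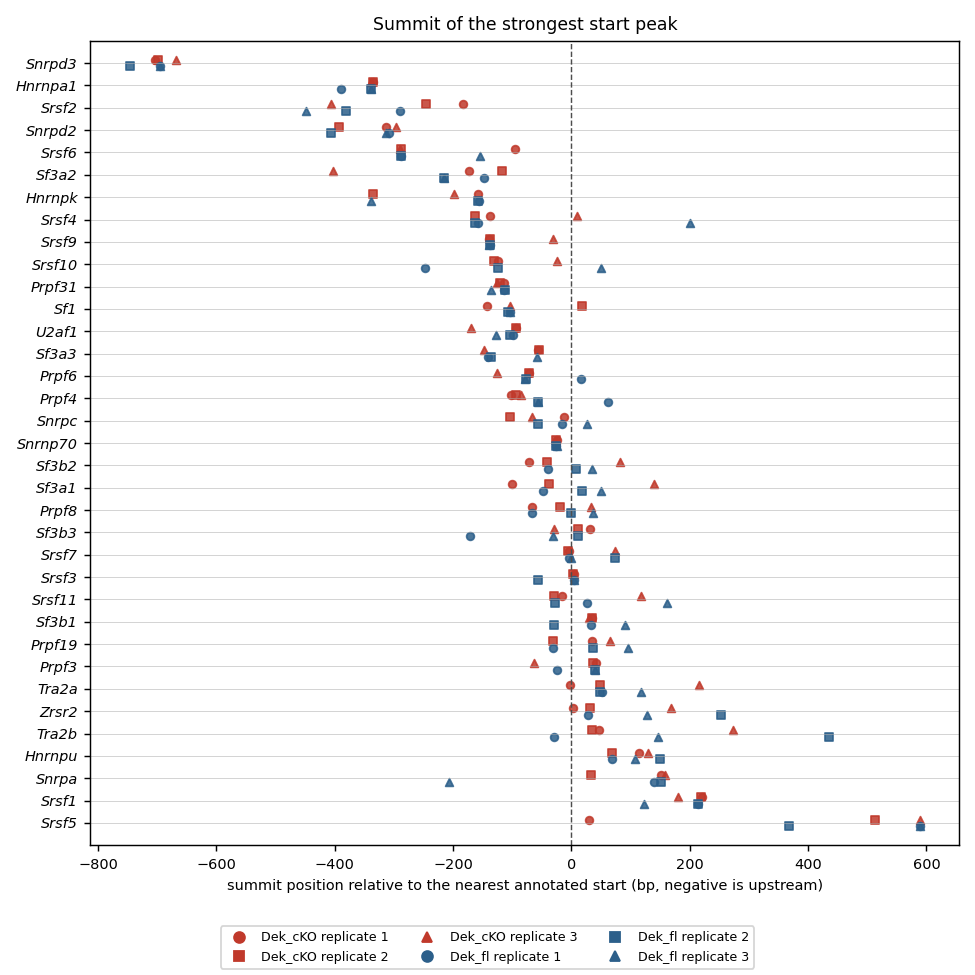
Position of the summit of the strongest start peak relative to the nearest annotated start, in bp, for the 35 genes with a known start, 1 point per library (Dek_cKO red, Dek_fl blue, a marker for each replicate number). The 6 points of Snrnp70 fall within 2 bp of one another, whereas those of Srsf5 spread over 560 bp.

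Snrnp70 had the tightest summit, at -24, -26 and -26 bp in the Dek_cKO libraries and -26, -26 and -24 bp in the Dek_fl libraries, which is base 225 or 227 of the promoter shown. That promoter holds 6 matches to the NRF1 letters GCATGCGC, in overlapping pairs from base 190 to 199 and from base 252 to 261 and singly at bases 13 and 128, so the summit falls between the pairs. NRF1 letters were found in 3 of 35 member promoters (8.57%, the others being Srsf7 and Sf1) and in 3.64% of the promoters of 17273 protein-coding genes. They were in 5.95% of the 8281 genes whose outer gene end on the start side was called in all 6 libraries. The ETS letters CCGGAAG were in 12 of 35 member promoters (34.3%), in 12.0% of all and in 20.2% of those called in all 6. The letters GGGCGG were in 24 of 35 (68.6%), 46.9% and 67.7%, the share in accessible promoters thus being close to that of the members. CCAAT was in 15 (42.9%), 39.4% and 40.3%, and TATAAA in 4 (11.4%), 13.4% and 6.42%, among them Srsf2 at base 222. CACGTG was in 2 (5.71%), 8.0% and 10.7%, TGACGTCA in 2 (5.71%), 2.37% and 3.82%, and AAGATGG in 1 (2.86%), 6.42% and 7.54%. These are matches of letters with no test. Member promoters were rich in CpG, with a median observed over expected ratio of 0.933, against 0.585 in all promoters and 0.790 in those called in all 6; their median GC content was 60.0%, against 56.3% and 61.3%.

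Gene-body peaks were few. The 39 genes together held 13, 15 and 2 gene-body peaks in Dek_cKO replicates 1, 2 and 3 and 8, 21 and 2 in Dek_fl replicates 1, 2 and 3, a mean of 10.0 ± 7.0 in Dek_cKO and 10.3 ± 9.71 in Dek_fl (SD, n = 3 each). The difference was smaller than the spread between libraries. Per 10 kb of gene body this was 0.230, 0.266 and 0.0354 in the Dek_cKO libraries and 0.142, 0.372 and 0.0354 in the Dek_fl libraries, against 0.310, 0.320 and 0.0973 and against 0.215, 0.314 and 0.0799 over all protein-coding genes. Dek_fl replicate 2 was the only library in which the members exceeded the value for all genes. Without it the mean number was 5.00 in Dek_fl.

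**Figure D3:**
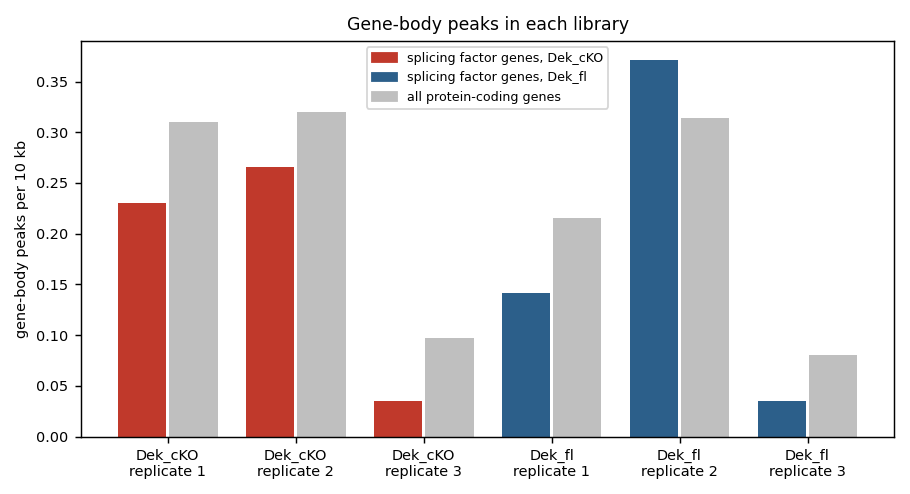
Gene-body peaks per 10 kb in each library, for the 39 splicing factor genes (red in Dek_cKO, blue in Dek_fl) and for all protein-coding genes (grey). The members' bar is lower than the grey bar except in Dek_fl replicate 2 (0.372 against 0.314), and both bars are low in replicate 3 of either group.

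Gene-body peaks were found in 14 of the 39 genes, and outside the merged gene-end regions they formed 21 regions, of which 6 were called in a single library. In Dek_cKO replicates 1, 2 and 3, 30.8%, 33.3% and 5.13% of members had a gene-body peak, against 43.0%, 43.6% and 23.7% of protein-coding genes. In Dek_fl replicates 1, 2 and 3 the shares were 17.95%, 33.3% and 5.13%, against 37.0%, 43.4% and 21.2%. The 5 genes with most gene-body peaks over the 6 libraries were Hnrnpu with 9, Tra2a with 8, Srsf11 with 6 and Srsf4 and Tra2b with 5 each. Srsf11 encodes an SR-related protein, and its gene-body region (chromosome 3, 158030938 to 158032460) was the only one of the 21 called in all 6 libraries. Its folds were 5.27, 6.72 and 12.3 in the Dek_cKO libraries and 5.52, 5.14 and 12.7 in the Dek_fl libraries. The promoter table places a second start of Srsf11 inside it, 1 of the 21 regions with such a start. In Hnrnpu, the 2 replicate 3 peaks counted as gene-body lay in the same merged region as the start.

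The other gene-body regions of these genes were called in replicates 1 and 2 only. Srsf4 had a region 16583 bp from its start (chromosome 4, 131890113 to 131891316) with folds of 8.06 and 8.29 in Dek_cKO replicates 1 and 2 and 4.69 and 7.07 in Dek_fl replicates 1 and 2. The gene's own start region had folds of 6.09 and 8.83 in those Dek_cKO libraries and 5.01 and 5.35 in those Dek_fl libraries, so the gene-body fold was the higher in Dek_cKO replicate 1 and Dek_fl replicate 2 and the lower in the other pair. Hnrnpu had a wide, low region (chromosome 1, 178328880 to 178331117) with folds of 2.62 and 2.37 in Dek_cKO replicates 1 and 2 and 2.38 and 2.42 in Dek_fl replicates 1 and 2. Tra2a had a region (chromosome 6, 49247222 to 49249657) with folds of 3.48 and 4.29 in Dek_cKO replicates 1 and 2 and 3.13 in Dek_fl replicate 2. Tra2b had one (chromosome 16, 22256072 to 22257046) with folds of 2.92 and 2.77 in Dek_cKO replicates 1 and 2 and 2.25 and 1.91 in Dek_fl replicates 1 and 2.

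Of the 73 member regions, 0 were called throughout Dek_cKO and nowhere in Dek_fl, and 0 the reverse. Over all 84592 merged regions such calls were 0.104% for Dek_cKO and 0.00355% for Dek_fl. The nearest case was a weak region in the body of U2af1 (chromosome 17, 31648385 to 31648869), called in Dek_cKO replicates 1 and 2 with folds of 2.78 and 3.08 and in 0 Dek_fl libraries. At the other end of Srsf7, a region (chromosome 17, 80198525 to 80200601) was called in Dek_cKO replicates 1 and 2 with folds of 3.19 and 3.61 and in Dek_fl replicates 1, 2 and 3 with folds of 3.91, 2.34 and 5.01. Both were chosen for mention after their values were seen.

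The groups were then compared by rank. In the 19683 regions that every library shared, folds were ranked by library and turned into a normal score, where 0 is the middle region and 1 unit is 1 SD of the ranked regions, and the scores were tested with limma. Of the 52 gene-end regions of members 42 were called in all 6 libraries and could be tested: 35 at starts, 2 at other ends and 5 at ends of unknown kind. None passed an adjusted p of 0.05 in either direction, with 0 at an unadjusted p under 0.05. Over all regions 0% were called higher and 0% lower in Dek_cKO, with 68 and 19 at an unadjusted p under 0.05. With the replicate number as a block, limma called 1 region of 19683 higher and 0 lower, none of them a member's, with 585 and 289 at an unadjusted p under 0.05 and 0 members among these. The members' differences ran from -0.43 to 0.52, with 15 positive and 27 negative and a median of -0.08, against a median of -0.02 over all 19683. With the Srsf11 gene-body region added, 43 member regions were tested. Leaving out 1 library moved their median from -0.22 (without Dek_fl replicate 2) to 0.0003 (without Dek_fl replicate 3, 22 positive and 21 negative). In 39 of the 42 the difference was smaller than its SE in the fit with no block. With the replicate block it exceeded its SE only at Snrpd1, Srsf4, Snrpc, Srsf6, Zrsr2, Srsf2 and Hnrnpa1. The 95% intervals reached from -1.47 to 1.50, and with the replicate block from -1.03 to 1.09, so these data do not show that the members' ranks were alike.

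**Figure D4:**
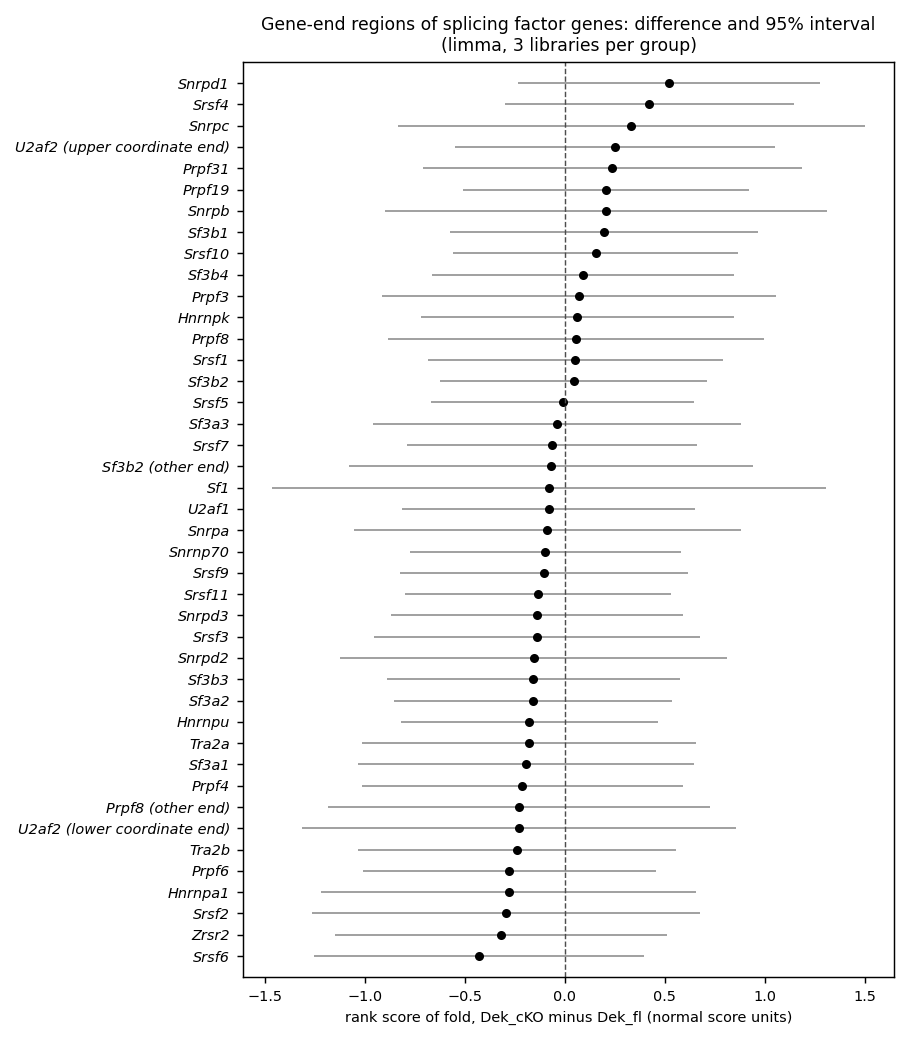
Difference in rank score of fold, Dek_cKO minus Dek_fl, with its 95% interval from limma, for the 42 gene-end regions of members called in all 6 libraries. All intervals include 0; Snrpd1 (0.52) and Srsf6 (-0.43) are at the extremes.

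Snrpd1, which encodes the Sm ring protein D1, had the largest positive difference. Its gene-end region on chromosome 18 had rank scores of 1.33, 2.19 and 1.48 in Dek_cKO replicates 1, 2 and 3 and 1.28, 1.25 and 0.90 in Dek_fl replicates 1, 2 and 3. The groups did not overlap, the difference was 0.52 (SE 0.34, 95% interval -0.23 to 1.28) and the limma adjusted p was 1.0. With the replicate block the interval was -0.04 to 1.09, and without Dek_cKO replicate 2 the difference was 0.26. Of all regions 2.1% had all Dek_cKO scores above all Dek_fl scores and 2.27% the reverse. Among the 42 gene-end regions of members there were 1 and 0, so their share was near that of all regions. Within replicates 1 and 2 the difference was 0.49 and within replicate 3 it was 0.58.

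Srsf4, an SR protein gene, had scores of -0.52, 0.34 and -0.13 in the Dek_cKO libraries and -0.57, -0.56 and -0.46 in the Dek_fl libraries. The lowest Dek_cKO score lay just below the highest Dek_fl score. The difference was 0.42 (SE 0.32), 0.47 within replicates 1 and 2 and 0.33 within replicate 3. Snrpc, which encodes a U1 particle protein, had folds at its start (chromosome 17, 27839200 to 27840736) of 10.7, 12.3 and 9.79 in the Dek_cKO libraries and 8.40, 8.82 and 8.96 in the Dek_fl libraries. By rank score it differed by 0.33 (SE 0.52), by 0.51 within replicates 1 and 2 and by -0.01 within replicate 3. The region of U2af2 at its end of higher coordinate, shared with Epn1 (chromosome 7, 5079813 to 5081089), had folds of 9.80, 9.79 and 10.7 in the Dek_cKO libraries and 7.92, 7.29 and 8.91 in the Dek_fl libraries. Its rank score differed by 0.25 (SE 0.36), and that at its other end, shared with Ccdc106, by -0.23 (SE 0.48). Prpf19 differed by 0.21 (SE 0.32), by -0.03 within replicates 1 and 2 and by 0.68 within replicate 3.

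Toward Dek_fl the largest difference was at Srsf6, an SR protein gene whose start region (chromosome 2, 162930534 to 162931896) had scores of -0.09, 0.00 and -0.62 in the Dek_cKO libraries and 0.17, -0.33 and 0.75 in the Dek_fl libraries. The groups overlapped. The difference was -0.43 (SE 0.37), and it lay in replicate 3, where it was -1.37, against 0.04 within replicates 1 and 2. Zrsr2 differed by -0.32 (SE 0.37), with 0.37, 0.08 and 1.02 in the Dek_cKO libraries and 0.72, 0.44 and 1.28 in the Dek_fl libraries. Its Dek_cKO score was the lower in each pair of the same replicate number, yet the pooled groups overlapped. Srsf2 differed by -0.29 (SE 0.43), by -0.07 within replicates 1 and 2 and by -0.75 within replicate 3. Hnrnpa1, in a region shared with Cbx5 (chromosome 15, 103239298 to 103241167), had folds of 5.90, 6.93 and 11.3 in the Dek_cKO libraries and 6.65, 5.41 and 10.4 in the Dek_fl libraries. Its rank score differed by -0.28 (SE 0.42), and that of Prpf6 by -0.28 (SE 0.33). U2af1 differed by -0.08 (SE 0.33) and Sf3b1 by 0.20 (SE 0.34).

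Of the 42 tested gene-end regions 18 also lay at an end of another protein-coding gene, and there a peak cannot be ascribed to one of the 2 genes. Among them were Hnrnpk with Rmi1, Srsf7 with Gemin6 and Snrpd2 with Qpctl.

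A second list of 72 other splicing genes, such as core snRNP proteins, helicases, hnRNPs and the Clk and Srpk kinases of SR proteins, was read in the same way. Of these 70 were called at a gene end in every library. Srpk2 had none in any library, and Hnrnph1 was called in 2 Dek_cKO libraries and 1 Dek_fl library. The median percentile of fold of this list was 86.2%, 90.0% and 79.4% in Dek_cKO replicates 1, 2 and 3. In Dek_fl replicates 1, 2 and 3 it was 90.3%, 86.7% and 76.1%. It lay above the members' median in each library except Dek_fl replicate 3. By limma 0 of the 75 tested regions of the second list passed in either direction, with 0 at an unadjusted p under 0.05. The differences ran from -0.68 (Clk1) to 0.57 (Crnkl1), with a median of -0.06. Of the 75 regions, 2 (Snrpa1 and Ddx23) had all Dek_cKO scores above all Dek_fl scores and 1 (Clk1) the reverse. These counts were near the shares over all regions, 2.1% and 2.27%. Of 8 genes that serve outside blood, most of them tissue-specific splicing regulators, Krt5 and Rbfox1 had no gene-end peak in any library, Nova1 and Esrp1 had one in all 6 and Celf4, Elavl3, Esrp2 and Rbfox3 in 1 to 5.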

How the data were processed

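ATAC-seq peak lists of 6 libraries, 3 per group, were used as deposited. The tools named in the submitters' processing notes are MACS2, Picard and Bowtie2, and the build is mm10; no source used here gives versions, settings or a Tn5 shift. The authors called peaks in each library separately. Each deposited row gives an interval, a score (not used beyond seeing how it was made), a fold of the summit over local background, a −log10 p, a −log10 q and a summit. Fold and −log10 p are the authors' values per peak and were used to describe and rank peaks within a list. Depth is unknown, so no counting interval is given.

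Peaks on chromosomes 1 to 19 and X (1-based coordinates) were merged where they shared a base. The gene table and promoter table are RefSeq GRCm38.p6. A gene's strongest gene-end peak was that of highest fold. Shared regions were ranked by fold, scored and tested with limma 3.58.1 (R 4.3.3), with no block and Benjamini-Hochberg adjustment over all 19683 regions; the method was tested on simulated data. Scores of same-numbered libraries, as deviations from group means, correlated at 0.27, 0.52 and 0.74. Dek_cKO replicate 1 and Dek_fl replicate 2 correlated at 0.57, and Dek_cKO replicate 2 and Dek_fl replicate 1 at 0.31. The labels give no pairing, so the replicate number was a block only in an alternative fit. The members, lists and tests were chosen with earlier results of these data known. Given in full were the 4 genes of myeloid neoplasms, the 5 gene-end regions of smallest p per direction, the 5 genes with most gene-body peaks, the 3 highest and 3 lowest by percentile of fold, and any region without overlap between groups. Alternatives were another ranking, list length, threshold, window, merging, block, batch term and leaving out each library.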

Additional observations from a re-analysis of the deposited data

How the results depend on the processing

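No member region passed the rank test under any of the 15 settings tried, the replicate block included (0 with the replicate block). With the replicate block no member's call changed, and 1 region that is no member's was called higher in Dek_cKO. With a term for how the list was made the count was also 0. The share of members called at a gene end was 100% in both groups except with a 0.5 kb window (98.3% in Dek_cKO and 98.3% in Dek_fl) and when the summit had to lie in the window (94.0% in Dek_cKO and 94.0% in Dek_fl). Member regions called in one group only, 0 in the deposited lists, numbered 1 for Dek_cKO within replicates 1 and 2 (the U2af1 gene-body region) and 1 for Dek_fl within replicate 3 (the other end of Srsf7); leaving out one library gave 0 to 1 for Dek_cKO. In equal-length lists a gene-end peak at Dek was left in 83.3% of libraries, against 100% in the deposited lists. Of the member regions whose own rank difference is given with the rank test above, some turned sign when 1 library was left out. Without Dek_cKO replicate 3 these were Prpf19 (-0.0071), U2af1 (0.095) and Sf3b1 (-0.013), and without Dek_fl replicate 2 U2af1 (0.087). Without Dek_fl replicate 3 they were Snrpc (-0.026), Srsf2 (0.14) and the U2af2 region shared with Ccdc106 (0.21). Further member regions also turned, among them Srsf1 (-0.12) and the Sf3b2 start (-0.05) without Dek_cKO replicate 3. Snrnp70 (0.086) turned without Dek_fl replicate 1 and Prpf31 (-0.13) without Dek_fl replicate 3. Leaving out each library in turn, the differences ran from -0.0071 to 0.34 at Prpf19, -0.23 to 0.095 at U2af1, -0.013 to 0.44 at Sf3b1, -0.026 to 0.85 at Snrpc, -0.59 to 0.14 at Srsf2 and -0.64 to 0.21 at the U2af2 region shared with Ccdc106. They kept their sign but ran from 0.26 to 0.69 at Snrpd1, 0.20 to 0.63 at Srsf4, 0.033 to 0.47 at the U2af2 region shared with Epn1, -0.70 to -0.13 at Srsf6, -0.59 to -0.085 at Zrsr2, -0.63 to -0.056 at Hnrnpa1 and -0.47 to -0.078 at Prpf6. Of these same named regions, Prpf19 (-0.034) and Srsf6 (0.038) turned within replicates 1 and 2, and Snrpc (-0.015) within replicate 3. The within-replicate rank differences were added after seeing the data. The cause was not tested. The median percentiles of members also turned sign, as given beside them. Unknown depth limits every uncalled peak.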
